A study of Homo sapiens with 15 samples.

Results

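The genes described here are those of membrane traffic that a rule on gene symbols picks out of an expression data set of Caco-2 cells. The rule takes symbols that start with RAB and a digit, SEC and a pair of digits, COP with a letter and a digit (or COPA), AP1 to AP4 with a subunit letter and digit, STX and a digit, or VAMP. Of the 14884 gene symbols with a named probe set, 69 met it. A gene with several probe sets was represented by the one with the highest mean level. Of the 69 genes, 63 were bright enough to be tested and 6 were not.

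A protein made on the rough endoplasmic reticulum (ER) enters it through the SEC61 channel and leaves it in vesicles wrapped in the COPII coat, which SEC23 and its partners build. Vesicles find their target with the help of RAB GTPases, switch proteins that regulators turn on and off, and fuse when SNARE proteins on both membranes zip together. Syntaxins and vesicle-associated membrane proteins (VAMPs) are SNAREs. In enterocytes this traffic keeps the brush-border membrane apart from the basolateral one, and apical delivery is known to use STX3 and VAMP7.

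Caco-2, established from a human colon carcinoma, differentiates towards enterocytes when kept past confluence. Expression was measured in 15 samples, 1 whole-transcript array each, in 3 groups of 5. Control cells were untreated. The LPS group was exposed for 48 h to 1 µg/mL of lipopolysaccharide from E. coli, a ligand of the receptor TLR4. The LPS+RSV group was given 50 µM trans-resveratrol, a plant polyphenol dissolved in ethanol, 1 h before the same exposure to LPS. The labels do not say whether the other groups received ethanol, so resveratrol and its solvent cannot be told apart, and no group had resveratrol without LPS. They also do not say that each array came from a separate culture, so the p-values measure the spread between these arrays, which may be technical.

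Values are log2 levels, and 1 unit is a doubling on the array's scale. Array medians lay between 5.49 and 5.54 and carry no sequencing depth, so the number of arrays limits the precision. Levels of different genes come from different probes and are not ranked against each other. Of 13 enterocyte and epithelial markers, 10 had a named probe set and all 10 were above the filter in this line, with array means of 9.37 to 9.99. Their mean levels ran from 6.07 for KRT20 to 12.65 for APOB, with KRT8 at 6.90 and the villus enzyme SI (sucrase-isomaltase) at 12.04. Of 4 goblet and Paneth cell markers with a named probe set, TFF3, LYZ and FCGBP were above the filter in all 15 arrays, at mean levels of 6.87, 6.33 and 5.73, and CLCA1 was below it. Of 4 fibroblast and endothelial markers, PECAM1 and VWF were above it in all arrays, at 5.78 and 5.56, LUM in 5 of 15, and DCN in 0. The 3 immune markers with a named probe set had array means of 8.01 to 8.52. CD68, a lysosomal protein, lay at 11.55, and LCP1 and CSF1R at 6.63 and 6.54, all above the filter in all 15 arrays. LPS+RSV replicate 1 stood apart from the other arrays: its mean correlation with them across genes was 0.946, against 0.973 to 0.984 for the rest. Many changes below are therefore given with and without it, and those of the other lists of traffic genes only with it.

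Symbols that start with the same letters do not all name the same machinery. Only 1 of the 69 genes was a RAB GTPase, RAB6D, which is nearly identical to other RAB6 genes and lay below the filter at a mean level of 3.07. Among the 69 genes there were 0 subunits of the COPI coat and 0 of the AP adaptor complexes. The COPI gene ARCN1, whose symbol the rule does not take, is among the other coat genes below. Most RAB GTPases, COPI and adaptor genes were not analysed here. What the rule found was 14 syntaxins, 7 VAMPs, 2 SEC22 genes of the SNARE family, 6 COPII genes, 7 genes of the translocon and signal peptidase, 10 regulators and partners of RAB proteins and 4 SEC14-like lipid-binding genes. It also caught 9 COPS genes, which encode the COP9 signalosome, a protease complex of the ubiquitin system that is no vesicle coat, and 9 antisense, divergent, pseudogene or readthrough loci named after such genes. Hence the set is called here the SNARE, SEC, COPS and RAB-regulator genes.

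None of the 63 tested genes changed with LPS or with resveratrol at a limma p under 0.05 after Benjamini-Hochberg adjustment over all 11804 genes tested. That count was 0 in each of the 3 comparisons, where few of all genes passed either: 3 (0.0254%) for LPS against control, 5 (0.0424%) for LPS+RSV against LPS, and 0 (0%) when LPS+RSV was set against control. Changes of the 63 were small, between -0.49 and 0.32 on the log2 scale over the 3 comparisons. Their median was -0.02 for LPS against control, against 0.01 over all genes tested, and 27 of 63 (42.9%) were higher, against 52.7%. It was 0.02 for LPS+RSV against LPS, against 0.01, with 36 (57.1%) higher, against 52.1%. For LPS+RSV against control it was 0.01, against 0.02, with 33 (52.4%) higher, against 55.8%. The count of 27 was 21 after median centring and 20 after quantile normalization. The comparisons share arrays, so they are not independent of each other.

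Before adjustment, 3 of the 63 genes had a limma p under 0.05 for LPS against control, where 7.88% of all genes did. For LPS+RSV against LPS the number was 14, or 22.2%, beside a background of 18.6%. For LPS+RSV against control it was 12, beside 10.5%. Of the 14 genes, 7 were higher and 7 lower (background 8.08% and 10.5%). Of the 12 genes, 2 were higher and 10 lower (background 4.09% and 6.4%), and of the 3 genes 1 was higher and 2 lower (background 4.62% and 3.26%). Quantile normalization moved the split of the 14 to 9 higher and 4 lower and that of the 12 to 3 higher and 4 lower, and cyclic loess moved the latter to 3 and 8. Without LPS+RSV replicate 1 the numbers were 5, 10 and 3 (background 10.3%, 14% and 5.33%). The first count was also 1 without control replicate 2, control replicate 5 or LPS replicate 5 and 0 without LPS replicate 4. The second fell to 7 without LPS replicate 4 and 6 without LPS replicate 5, beside 1710 and 1720 of 11804 genes. The third fell to 4 without control replicate 2 and 5 without control replicate 3, beside 753 and 996 of 11804 genes. Groups of arrays that did not overlap were found for 1, 0 and 1 of the 63 genes, where 2.21%, 2.8% and 1.72% of all genes had them. The share of 12 in 63 was above its background in the fit to all 15 arrays. Without LPS+RSV replicate 1, 3 in 63 was not above the background of that fit, in which 629 of 11804 genes had such a p. Nor were 4 and 5 in 63 without control replicates 2 and 3, taken out singly. For LPS+RSV against LPS, 7 and 6 in 63 without LPS replicates 4 and 5, taken out singly, were below their backgrounds.

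**Figure D1:**
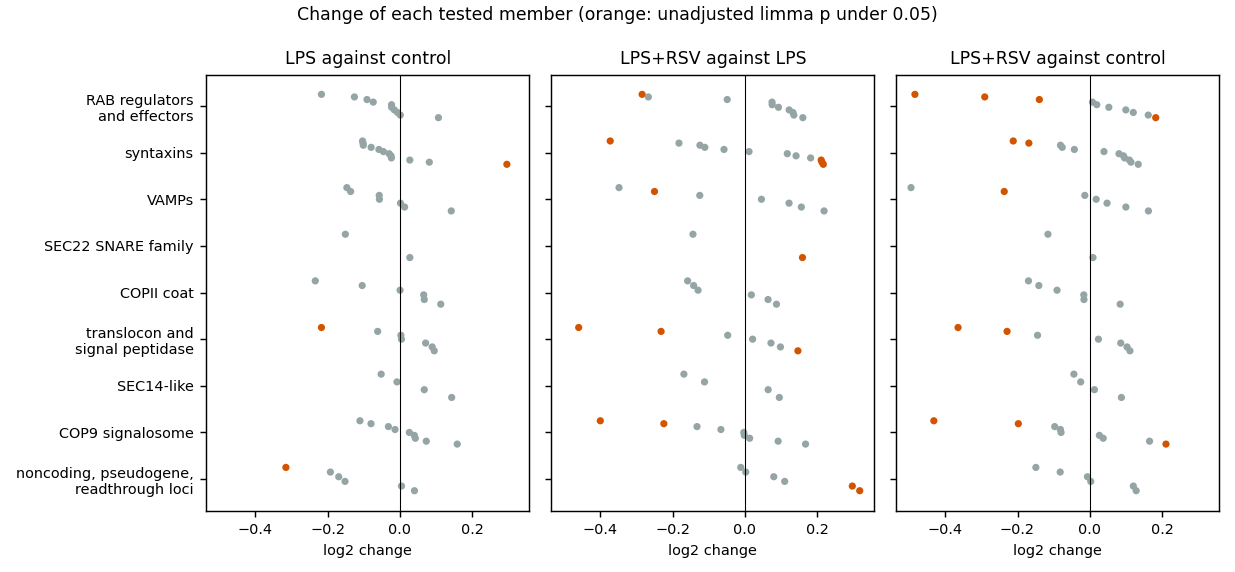
Log2 change (x axis) of each of the 63 tested genes in the 3 comparisons, by role (y axis); points within a role are spread vertically for legibility, and orange marks an unadjusted limma p under 0.05. All points lie between -0.49 and 0.32, and 3, 14 and 12 points are orange in the panels from left to right.

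Among the regulators and partners of RAB proteins, 10 of 10 were tested and 0 changed after adjustment. RAB3GAP1 and RAB3GAP2 form the complex that acts on RAB3 and activates RAB18. RAB3GAP2 had levels of 9.15, 9.27, 9.04, 9.0 and 9.0 in the control arrays, 9.07, 9.03, 8.90, 9.18 and 9.25 with LPS, and 8.38, 9.03, 9.06, 8.77 and 8.76 with LPS+RSV. The first LPS+RSV array was the lowest of all, and the groups overlapped. Its log2 change was -0.28 ± 0.11 (SE) for LPS+RSV against LPS (limma adjusted p = 0.206) and -0.29 ± 0.11 against control (limma adjusted p = 0.464). Without LPS+RSV replicate 1 these were -0.18 and -0.19. RAB3GAP1 differed by -0.14 ± 0.07 between LPS+RSV and control, and by -0.11 without that array.

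RAB11FIP1 to RAB11FIP5 are adaptors of RAB11, the GTPase of recycling endosomes. RAB11FIP2, which links RAB11 to myosin 5B, lay at 8.37, 8.34, 8.01, 8.05 and 7.96 in control, at 7.79, 7.75, 7.81, 8.27 and 8.03 with LPS and at 6.76, 8.05, 8.02, 7.79 and 7.69 with LPS+RSV. A single LPS+RSV array was more than 0.9 below every other array. The LPS+RSV mean differed from control by -0.48 ± 0.20 (limma adjusted p = 0.464), and by -0.26 without that array. RAB11FIP1, RAB11FIP3, RAB11FIP4 and RAB11FIP5 differed by 0.14 or less in size in every comparison. RAB5IF, named for its binding to RAB5, was 0.18 ± 0.08 above control in LPS+RSV (limma adjusted p = 0.464), and 0.14 without LPS+RSV replicate 1.

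Of the 14 syntaxins, 12 were tested and 0 changed after adjustment. STX11 and STX19 were below the filter, at mean levels of 4.90 and 3.90. STX2, also known as epimorphin, a plasma membrane syntaxin, differed most among the syntaxins in the comparisons that involve the LPS group, but by only -0.08 between LPS+RSV and control. Its control values were 6.67, 6.60, 6.32, 6.35 and 6.31, its LPS values 6.79, 7.01, 6.40, 6.74 and 6.79, and its LPS+RSV values 6.14, 6.79, 6.52, 6.24 and 6.19. All LPS arrays but the third lay above all control arrays, and LPS+RSV spanned both groups. STX2 was 0.30 ± 0.13 higher with LPS than in control (limma adjusted p = 0.610) and 0.37 lower, at -0.37 ± 0.13, with LPS+RSV than with LPS (limma adjusted p = 0.176). With the cell cycle score described below in the fit, these changes were 0.13 and -0.15, and the first was 0.19 without LPS replicates 1 and 2.

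STX3, the apical syntaxin of enterocytes, had group means of 8.84 ± 0.07 (SD, n = 5) in control, 8.92 ± 0.09 with LPS and 8.79 ± 0.09 with LPS+RSV. The 95% interval of its change with LPS ran from -0.06 to 0.22. STX18, an ER syntaxin, had the narrowest spread, with an SD of 0.05, 0.03 and 0.01 in the 3 groups and a change with LPS whose 95% interval ran from -0.08 to 0.13. STX5, STX8 and STX10, which serve the ER-to-Golgi step, endosomes and the trans-Golgi network, had higher means with LPS+RSV than with LPS. Their differences were 0.21 ± 0.09, 0.22 ± 0.08 and 0.21 ± 0.08 (limma adjusted p = 0.224, 0.198 and 0.186), and their group ranges overlapped. Without LPS+RSV replicate 1 the differences were 0.16, 0.20 and 0.15. STX8 stood at 7.96, 7.96, 7.96, 7.57 and 7.68 with LPS and at 8.10, 7.89, 8.03, 8.11 and 8.09 with LPS+RSV, and its low LPS values were those of replicates 4 and 5. STX7, a late endosomal syntaxin, and STX17, the syntaxin of autophagosomes, were lower in LPS+RSV than in control, by -0.21 ± 0.09 and -0.17 ± 0.08 (limma adjusted p = 0.464 for each), and by -0.13 and -0.09 without LPS+RSV replicate 1.

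All 7 VAMPs were tested and 0 changed after adjustment. VAMP7, a SNARE of late endosomes and of apical exocytosis, had control levels of 9.01, 9.0, 9.25, 8.97 and 9.03. With LPS they were 9.0, 9.03, 8.97, 9.03 and 9.28, and with LPS+RSV 8.53, 8.95, 9.09, 8.77 and 8.73. Of the LPS+RSV arrays, 4 lay below every array of the other groups and the third lay among them. VAMP7 differed by -0.25 ± 0.10 from LPS (limma adjusted p = 0.198) and by -0.24 ± 0.10 from control. A second VAMP7 probe set gave -0.23 and -0.22, and without LPS+RSV replicate 1 the first probe set gave -0.18 and -0.17.

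VAMP4, a SNARE of the trans-Golgi network, lay at 7.16, 7.63, 7.20, 7.03 and 6.69 in control, 7.15, 7.05, 6.50, 7.10 and 7.17 with LPS, and 5.62, 7.05, 7.10, 6.82 and 6.66 with LPS+RSV. Its groups overlapped and its spread was wide, with 95% limits of -1.0 and 0.01 on the change from control to LPS+RSV. Its mean change there was -0.49 ± 0.24, and -0.24 without LPS+RSV replicate 1. VAMP3, a SNARE of recycling endosomes, kept within 9.69 and 9.96 over all 15 arrays. VAMP8, which serves exocytosis of secretory granules and fusion of endosomes and autophagosomes, had group means of 9.67 ± 0.20 (SD, n = 5), 9.61 ± 0.18 and 9.83 ± 0.26, and its arrays are given with the cell cycle score below. SEC22B, the SNARE of ER-to-Golgi vesicles, differed by -0.15 ± 0.07 with LPS and by 0.16 ± 0.07 between LPS+RSV and LPS (limma adjusted p = 0.653 and 0.265), the former being -0.09 without control replicate 5.

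The 6 COPII genes had 0 changes after adjustment and 0 unadjusted limma p under 0.05 in any comparison. SEC23A and SEC23B encode alternative forms of the inner coat protein. SEC23A lay at 10.15 ± 0.10 (SD, n = 5), 10.15 ± 0.09 and 10.01 ± 0.13 in control, LPS and LPS+RSV, and its change with LPS had a 95% interval of -0.16 to 0.16. SEC23B lay at 8.62 ± 0.18, 8.73 ± 0.07 and 8.60 ± 0.15. SEC16A, which organises the exit sites of the ER, differed by 0.08 or less in every comparison. SEC31B, a form of the outer coat protein, had 1 LPS+RSV array at 5.63 with the other 4 between 6.52 and 6.58. Its change from LPS to LPS+RSV was 0.06 ± 0.16, and 0.25 ± 0.10 without that array (limma adjusted p = 0.305).

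Of the 7 genes of the translocon and signal peptidase, SEC62 had the lowest limma p of all 63 genes. SEC62 sits beside the SEC61 channel, takes part in import of small proteins and is also a receptor for autophagy of the ER. Its levels were 9.43, 9.41, 9.40, 9.39 and 9.35 in control, 9.5, 9.60, 9.27, 9.63 and 9.46 with LPS, and 8.44, 9.16, 9.34, 9.14 and 9.08 with LPS+RSV. Every LPS+RSV array lay below every control array, by a margin of 0.01 at the closest, and the LPS+RSV and LPS ranges overlapped. The log2 change was -0.46 ± 0.13 from LPS to LPS+RSV (limma adjusted p = 0.127) and -0.36 ± 0.13 from control (limma adjusted p = 0.464). Without LPS+RSV replicate 1 these were -0.31 ± 0.08 (limma adjusted p = 0.139) and -0.22 ± 0.08. A second, dimmer SEC62 probe set gave -0.35 and -0.10. Its LPS+RSV arrays, at 7.44 to 7.95, overlapped its control arrays, at 7.58 to 7.97.

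SEC63, the partner of SEC62 that recruits the chaperone BiP to the channel, differed by -0.23 ± 0.10 from LPS and from control in LPS+RSV (limma adjusted p = 0.243 and 0.464), and by -0.14 in both without LPS+RSV replicate 1. Of the channel subunits, SEC61A1 had means of 10.55 ± 0.03 (SD, n = 5), 10.62 ± 0.09 and 10.57 ± 0.05, and SEC61B of 8.75 ± 0.08, 8.76 ± 0.11 and 8.86 ± 0.10. SEC61A2, the second alpha subunit gene, was -0.22 ± 0.09 from control with LPS, with the lowest limma adjusted p of that comparison among these genes, 0.564. SEC11A, the catalytic subunit of the signal peptidase, stood at 8.35, 8.32, 8.30, 8.33 and 8.48 with LPS and 8.51, 8.49, 8.55, 8.44 and 8.53 with LPS+RSV. All LPS arrays except replicate 5 lay below all LPS+RSV arrays, and the difference was 0.15 ± 0.06 (limma adjusted p = 0.194). The 4 SEC14-like genes, SEC14L3, SEC14L4, SEC14L5 and SEC14L6, had 0 unadjusted limma p under 0.05.

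The 9 COPS genes were all tested and 0 changed after adjustment. COPS2 lay between 10.51 and 10.65 in control and between 10.32 and 10.68 with LPS, and at 9.28, 10.49, 10.56, 10.27 and 10.18 with LPS+RSV. The first LPS+RSV array was 0.89 below the next lowest. COPS2 differed by -0.40 ± 0.18 from LPS (limma adjusted p = 0.247) and by -0.43 ± 0.18 from control, which became -0.18 and -0.21 without that array. COPS8 differed by -0.22 ± 0.09 from LPS and by -0.20 ± 0.09 from control, and by -0.13 and -0.11 without that array. COPS7A was 0.21 ± 0.09 above control in LPS+RSV, and 0.12 without that array. COPS5, the protease subunit that removes NEDD8 from cullins, differed by 0.11 or less in size in all comparisons.

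Of the 9 noncoding, pseudogene and readthrough loci, 6 were tested. RAB11B-AS1, the antisense RNA of RAB11B, lay between 7.01 and 7.04 in all 5 control arrays, at 7.02, 7.01, 6.84, 6.47 and 6.93 with LPS and at 7.38, 7.04, 7.02, 7.21 and 7.11 with LPS+RSV. It was 0.30 ± 0.10 higher with LPS+RSV than with LPS (limma adjusted p = 0.163), and 0.24 higher without LPS+RSV replicate 1. RAB30-DT, a divergent transcript of RAB30, lay at 9.10, 9.14, 9.20, 9.13 and 9.16 in control and at 8.94, 8.92, 9.0, 9.07 and 9.03 with LPS. Its control and LPS arrays did not overlap, and LPS differed from control by -0.15 ± 0.08 (limma adjusted p = 0.690). The LPS+RSV arrays, at 8.67, 9.05, 9.22, 9.02 and 9.01, overlapped both other groups. They differed from control by -0.15 ± 0.08, and by -0.07 without LPS+RSV replicate 1. STX17-DT differed by -0.32 ± 0.14 with LPS and by 0.32 ± 0.14 between LPS+RSV and LPS (limma adjusted p = 0.615 and 0.253). AP4B1-AS1, COPG2IT1 and SEC24B-AS1 were below the filter.

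**Figure D2:**
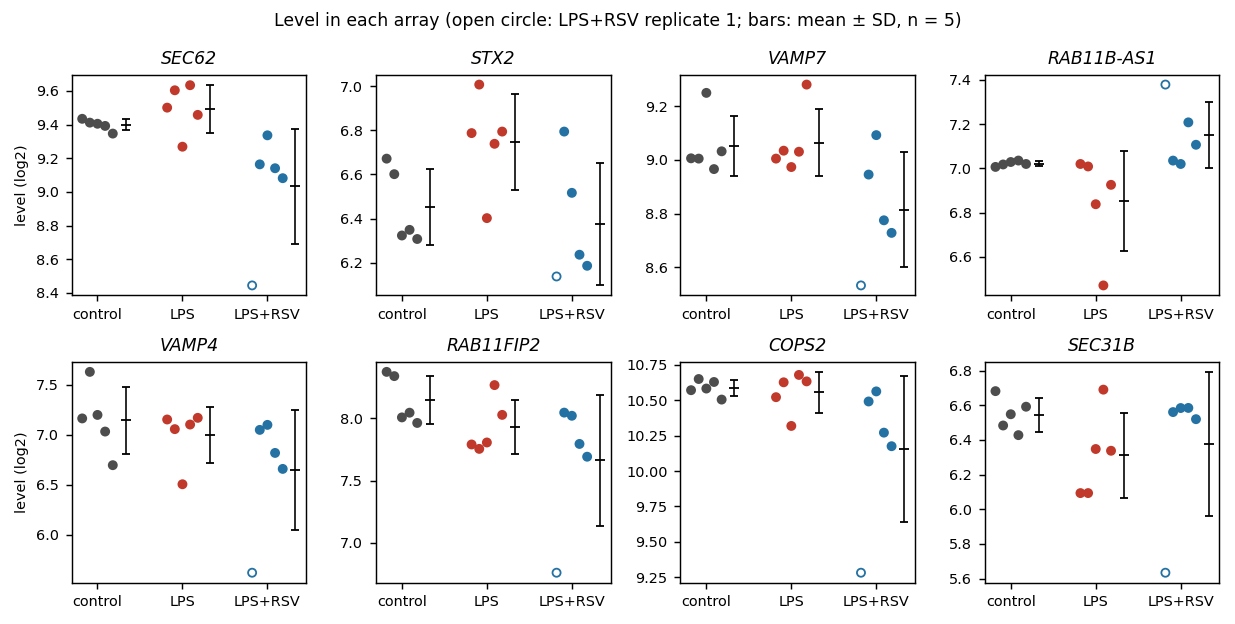
Log2 level (y axis) of 8 of these genes in each array, by group; an open circle is LPS+RSV replicate 1 and the bar beside the points is the mean ± SD, n = 5. Groups overlap in most panels, and the open circle is the lowest of all arrays in every panel except that of RAB11B-AS1, where it is the highest.

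One array gave many of the widest values. LPS+RSV replicate 1 held the lowest of the 15 values for 19 of the 63 genes and the highest for 15, or 54.0% of the genes, against 46.8% of all genes tested. Among these genes the next array by that count was LPS replicate 5, with 20.6%. Relative to the mean of the other 4 LPS+RSV arrays it was lower by -1.29 for VAMP4, -1.13 for RAB11FIP2, -1.09 for COPS2, -0.93 for SEC31B, -0.74 for SEC62 and -0.52 for RAB3GAP2. It was higher by 0.45 for COPS7A and 0.34 for COPS9. Genes of 1 complex thus lay on both sides, COPS2 and COPS7A among them. As the share over all genes shows, the array stood apart across the transcriptome. With arrays weighted by how well they fit, LPS+RSV differed from control by -0.22 for SEC62, -0.24 for RAB11FIP2 and COPS2, -0.17 for RAB3GAP2 and 0.14 for COPS7A.

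**Figure D3:**
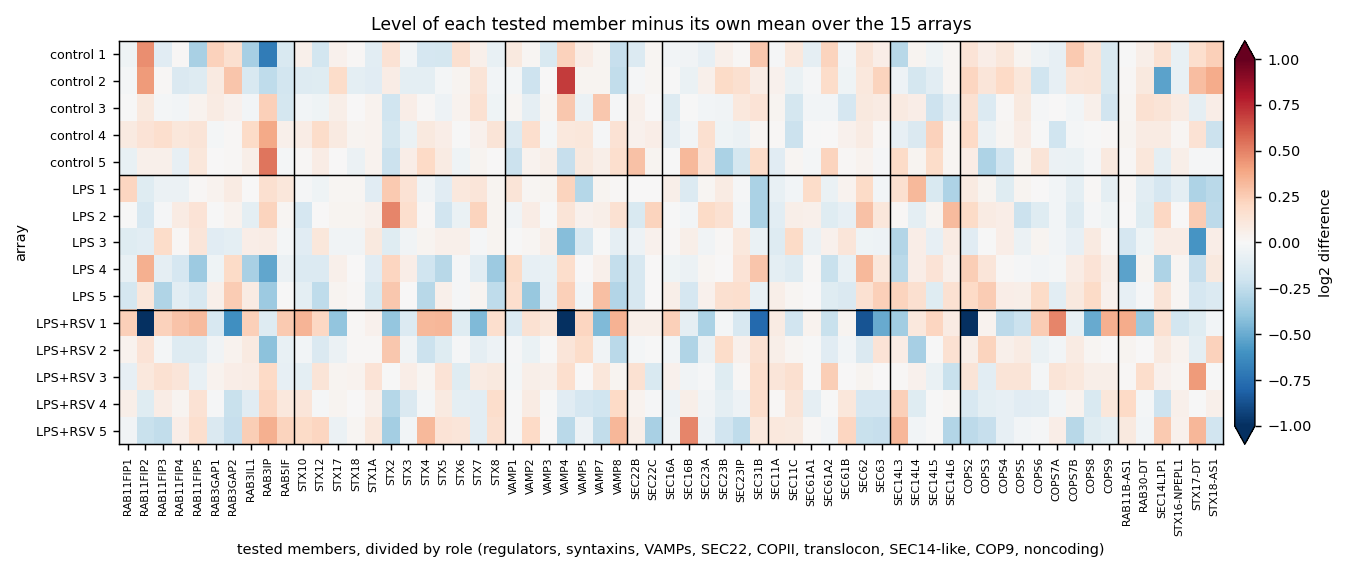
Log2 level of each of the 63 tested genes minus that gene's mean over the 15 arrays (colour), with arrays as horizontal lines and genes as vertical ones, divided by role. The line of LPS+RSV replicate 1 holds the darkest cells, such as VAMP4, RAB11FIP2 and COPS2, and no role forms a block that separates the 3 groups.

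**Figure D4:**
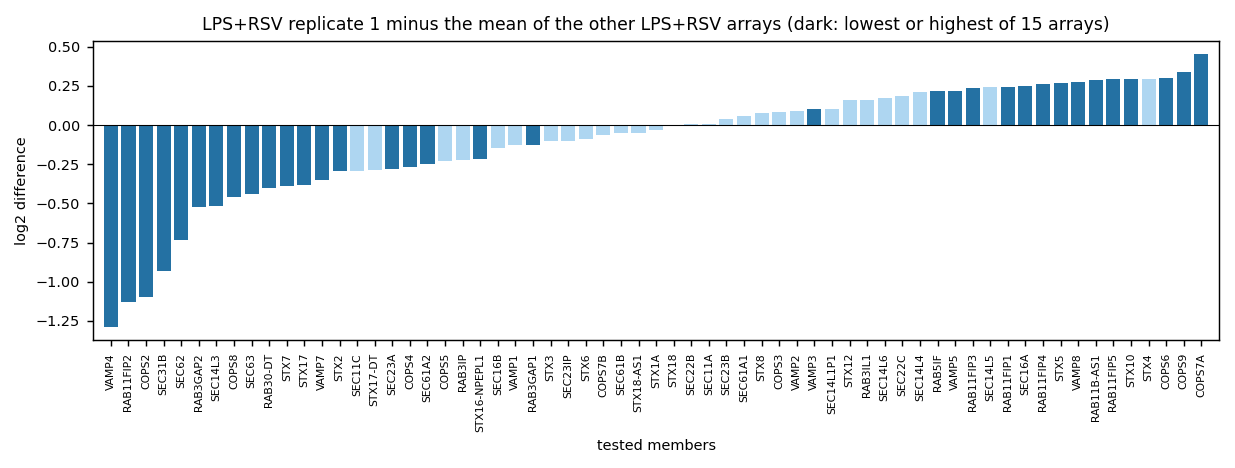
Log2 level of LPS+RSV replicate 1 minus the mean of the other 4 LPS+RSV arrays (y axis) for each of the 63 tested genes, ordered by that difference; dark bars are genes for which this array was the lowest or highest of the 15. The differences run from -1.29 for VAMP4 to 0.45 for COPS7A.

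Array-to-array spread within groups was modest for these genes. Their residual SD, the spread around group means, had a median of 0.13 against 0.16 for all genes tested. VAMP4, RAB3IP, RAB11FIP2, COPS2, SEC31B and STX17-DT had the largest values, and VAMP4 reached 0.43. RMA gave some arrays exactly equal values: 6 of the 63 genes, or 9.52%, had the same level to 6 decimals in at least 3 arrays, against 15.7% of all genes tested. COPS7A and SEC14L6 had 5 such arrays each.

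The arrays differed in the level of proliferation genes, and part of these genes' spread followed it. A cell cycle score was taken per array as the mean deviation of 34 genes of DNA replication and mitosis from their means over all arrays. It ran from -1.03 to 0.48 in control, -0.03 to 1.03 with LPS and -0.91 to 0.46 with LPS+RSV. The slope of each gene on that score was fitted within groups with limma, a test added after the data were seen. It was called, at an adjusted p under 0.05, for 18 of the 63 genes, or 28.6%, against 23.6% of all genes tested. Of the 18 slopes, 10 were positive and 8 negative (background 14% and 9.58%). That split was 6 and 11 after median centring, 4 and 11 after quantile normalization and 8 and 9 after cyclic loess. The number called was 11 without control replicate 2 (17.5%, against 19.1% of all genes), 8 without LPS+RSV replicate 2 (12.7%, against 16%) and 10 without both arrays of most extreme score, control replicate 5 and LPS replicate 5 (15.9%, against 15.6%). The excess of these genes over the background therefore did not hold without either of those replicates 2. Nor did it hold with the replicate number as a block in the fit (19%, against 20.5%) or without LPS replicates 1 and 2 together (22.2%, against 23%). The shares were close after quantile normalization (23.8%, against 23.4%) and without LPS replicate 4 (22.2%, against 22%).

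Slopes were called under all 26 alternatives for 7 genes. RAB3IP, also called Rabin8, turns on RAB8 during growth of cilia and apical membranes. Its level was 8.96 in control replicate 5, the array of lowest score, and 8.06 in LPS replicate 5, that of highest score. The slope was -0.62 ± 0.10 per unit of score (limma adjusted p = 0.000271). VAMP8 had a slope of -0.35 ± 0.06 (limma adjusted p = 0.000291). Its levels in order of replicate were 9.47, 9.46, 9.69, 9.85 and 9.87 in control, 9.71, 9.86, 9.61, 9.47 and 9.41 with LPS and 10.05, 9.43, 9.73, 9.90 and 10.04 with LPS+RSV. In each group the arrays of high score were the low ones.

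STX4, the basolateral syntaxin of epithelia, had a slope of -0.30 ± 0.05 (limma adjusted p = 0.000464), with 7.69 in control replicate 5 and 7.21 in LPS replicate 5. RAB11FIP5 had a slope of -0.30 ± 0.06 (limma adjusted p = 0.00223), and STX12, an endosomal syntaxin, one of -0.23 ± 0.05. COPS3 and COPS7B, subunits of the COP9 signalosome, had positive slopes of 0.25 ± 0.05 and 0.21 ± 0.05 (limma adjusted p = 0.00181 and 0.00556). COPS3 stood at 8.13 in control replicate 5 and at 8.69 in LPS replicate 5. SEC23B and SEC23IP, which binds SEC23, also had positive slopes, of 0.20 ± 0.06 and 0.17 ± 0.05 (limma adjusted p = 0.0169 and 0.0166), called in 20 and 23 of the alternatives. Replicate by replicate, SEC23B was not called without control replicate 2, control replicate 5 or LPS+RSV replicate 2, and SEC23IP not without control replicate 5.

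The remaining 9 called genes were SEC16B, VAMP2 and STX8 with negative slopes and SEC63, RAB3GAP2, STX2, RAB11FIP2, VAMP4 and STX18-AS1 with positive ones. Of these RAB11FIP2, VAMP4 and STX18-AS1 were called in 6, 11 and 12 of the alternatives, fewer than the other 6. Group means of all 34 genes of the score were higher with LPS than in control and lower with LPS+RSV than with LPS (medians 0.61 and -0.75). These 34 genes share the same arrays and are not replicates, and 0 were called (lowest limma adjusted p = 0.544 and 0.157). Scores of the groups overlapped, with 0.48 and 0.47 in control replicates 1 and 2 and 0.19, 0.15 and -0.03 in LPS replicates 1 to 3. The score was also added to the fit of the treatment comparisons. Of the 63 genes, 0 were then called, and 8, 6 and 9 had an unadjusted limma p under 0.05. These are 12.7%, 9.52% and 14.3% of the 63, beside 16.3%, 11.6% and 11.9% of all genes in that fit. The change from LPS to LPS+RSV then was 0.09 for STX8, 0.14 for STX10, -0.16 for VAMP7 and -0.10 for RAB3GAP2, and for LPS against control it was -0.07 for SEC22B.

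**Figure D5:**
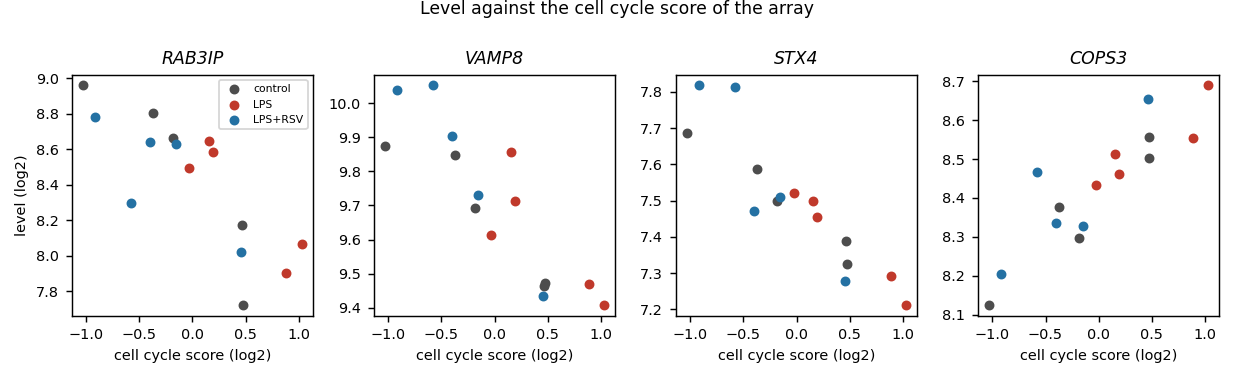
Log2 level (y axis) of RAB3IP, VAMP8, STX4 and COPS3 against the cell cycle score of the array (x axis, log2), 15 arrays coloured by group. RAB3IP, VAMP8 and STX4 lie lower and COPS3 higher in arrays of higher score, with within-group slopes of -0.62, -0.35, -0.30 and 0.25.

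Other genes of membrane traffic were read from lists. Of 34 other coat, cargo and clathrin genes, 23 ARF GTPases and regulators, 35 further RAB regulators, 19 other SNARE genes, 43 subunits of tethering complexes and 14 genes of retromer and sorting nexins, 0 were called by limma in any of the 3 comparisons. For LPS+RSV against LPS, an unadjusted limma p under 0.05 was found for 8.08% of all genes as higher and 10.5% as lower. Beside that, 9 of the 43 tethering genes were higher and 4 lower, and 3 and 4 of the 14 retromer and sorting nexin genes. The other lists had 4 higher and 6 lower of the coat genes, 2 and 4 of the ARF genes, 2 and 7 of the RAB regulators, and 1 and 4 of the SNARE genes. The lowest limma adjusted p was that of TRAPPC6A, a subunit of the TRAPP complexes that tether vesicles, at 0.42 ± 0.09 (0.0756). TRAPPC10 of the same complexes went the other way, at -0.26 ± 0.06 (limma adjusted p = 0.106). VPS26B and VPS26A, alternative subunits of retromer, also differed in sign, at 0.26 ± 0.06 and -0.22 ± 0.07 (limma adjusted p = 0.102 and 0.153). Medians of the 6 lists lay between -0.11 and 0.03 in that comparison. Of the coat genes, AAK1 had the lowest limma p, at -0.36 ± 0.10 (limma adjusted p = 0.126). KDELR1, a receptor that returns ER proteins from the Golgi, was 0.30 ± 0.09 higher (limma adjusted p = 0.153). For LPS+RSV against control, 4.09% of all genes were higher and 6.4% lower at an unadjusted limma p under 0.05. Of the 35 RAB regulators 0 were higher and 8 lower, and of the 19 SNARE genes 0 and 6. Coat genes had 2 and 2, ARF genes 0 and 1, tethering genes 5 and 5, retromer and sorting nexins 0 and 2. These counts were not examined without LPS+RSV replicate 1.

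Many ER and COPII genes are induced by ER stress through the factors XBP1 and ATF6, which bind a sequence with the core TGACGTGG. The promoters of these genes, from 250 bases before to 50 after the start in RefSeq on GRCh38.p14, were searched for it on both strands. It stood in 5 of the 56 coding genes that had a promoter there, or 8.93%, against 1.05% of the 15843 coding genes of the table. These were SEC16A, SEC16B, SEC23A, SEC62 and STX5. Of the shorter TGACGT, which every TGACGTGG contains, the shares were 30.4% and 11.7%; of CACGTG, 16.1% and 10.9%; of CCAAT, 39.3% and 42.1%; and of TTTGAA, 5.36% and 15.8%. The rule picked the genes by name, and a match is only these letters. Below, the core or its reverse complement is in capitals, in the stretch up to the start site of the 3 genes in which it lies fully upstream. They are at chr1:177984285-177984375 on the minus strand (SEC16B), chr3:169966730-169966806 on the plus strand (SEC62) and chr11:62832052-62832127 on the minus strand (STX5).
SEC16B: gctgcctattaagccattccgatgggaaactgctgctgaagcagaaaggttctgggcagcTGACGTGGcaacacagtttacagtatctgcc
SEC62: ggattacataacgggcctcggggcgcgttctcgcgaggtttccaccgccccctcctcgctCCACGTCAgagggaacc
STX5: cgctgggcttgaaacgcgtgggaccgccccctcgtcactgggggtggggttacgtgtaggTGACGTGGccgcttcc
The 5 genes showed no common direction. For LPS+RSV against LPS the changes were 0.02 for SEC16A, 0.09 for SEC16B, -0.14 for SEC23A, -0.46 for SEC62 and 0.21 for STX5, and limma called none of them.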

How the data were processed

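Expression was measured on 15 arrays. The deposited table holds log2 values that the authors made with RMA, per the submitters' processing notes; its version and the probes' genome build were not given in the sources used here. Of 53617 probe sets, 16098 had 1 gene symbol in the platform annotation, which can be old, and 37519 were unnamed. All 69 genes matched RefSeq. Each symbol took its probe set of highest mean, and genes above the 40th percentile of an array in at least 5 of 15 arrays were tested, 11804 in all. limma 3.58.1 (lmFit and eBayes, R 4.3.3) fitted 3 group means to all arrays, with Benjamini-Hochberg adjustment over the genes tested and no pseudocount. The scripts were tested on simulated data. The genes and lists were chosen with earlier results of these data known. Genes named were the 4 of lowest p in each direction per comparison, the 2 of highest mean per role, the 6 of largest residual SD, and 8 matched of 22 names of intestinal or secretory traffic. Other genes were named by role and after their values were seen. Alternatives covered filter, probe sets, normalization, moderation, array weights, 2-group fits, the replicate block, the cell cycle score and each array left out.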

Additional observations from a re-analysis of the deposited data

Results flagged for a closer look

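In 19 of the 189 groups examined (63 genes, 3 groups), or 10.1%, 1 array of 5 lay far from the other 4 by Dixon's test, whose critical value is 0.71. For values of normal spread, chance gives such a case in about 1 of 20 groups. The share over all genes tested was not computed, so 10.1% cannot be read as particular to these genes. In 9 of the 19 the distant array was LPS+RSV replicate 1, which held the lowest or highest value for 46.8% of all genes tested. LPS+RSV replicate 1 was the distant array for COPS6 at 9.47, SEC23A at 9.79, SEC31B at 5.63, RAB11FIP2 at 6.76, SEC14L5 at 6.23, VAMP1 at 5.84, STX17 at 7.06, STX16-NPEPL1 at 6.54 and SEC62 at 8.44. LPS replicate 5 was it for COPS7A at 7.86, VAMP7 at 9.28 and SEC11A at 8.48. Single cases were VAMP4 at 6.50 in LPS replicate 3, COPS4 at 7.46 in LPS replicate 1, SEC22C at 6.68 in LPS replicate 2, SEC14L6 at 5.67 and VAMP7 at 9.25 in control replicate 3, SEC61A1 at 10.49 in control replicate 1 and SEC16B at 7.0 in control replicate 5. For COPS7A, SEC14L6, SEC14L5 and SEC22C, several of the other arrays held exactly equal values.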

How the results depend on the processing

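Under every alternative run, 0 of these genes were called in any of the 3 comparisons. Each number of the 63 genes with an unadjusted limma p under 0.05 is followed in brackets by the number among all 11804 genes. For LPS against control it was 7 (1469) with array weights and 8 (1921) with the cell cycle score in the fit. With 1 array left out it was 0 to 5 (682 to 1214). For LPS+RSV against LPS it was 6 (1373) with the score and 6 to 21 (1650 to 2937) with 1 array left out. For LPS+RSV against control it was 7 (1211) after quantile normalization, 6 (801) with array weights and 5 (885) in the fit to only the 2 groups. With 1 array left out it was 3 to 15 (629 to 1991). The median change was 0.017 for LPS against control with the score and 0.066 for LPS+RSV against LPS after quantile normalization. Slopes on the score were called for 10 genes without both arrays of most extreme score. With 1 array left out they were called for 8 to 20 (12.7% to 31.7%, against 16% to 28% of all genes). With the replicate number as a block the counts were 3 (870), 13 (1954) and 10 (1045). The slopes called were then 12, or 19% of these genes, against 20.5% of all genes. The numbers were not taken to pair the arrays. Same-numbered arrays were correlated across genes on deviations from each gene's group mean, not on the levels themselves. These correlations were not all over 0.1: they ran from -0.541 to 0.119, from -0.370 to 0.098 and from -0.441 to 0.707. In the last comparison 3 of 5 arrays correlated best with their own number. The causes were not tested. The counts of unadjusted p and the slopes were added after the data were seen. Precision is limited by having 5 arrays a group, and dim genes and unnamed probe sets were not analysed here.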
